A study of Drosophila melanogaster with 35 samples.

Results

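Gene expression was compared between unperturbed Drosophila melanogaster brains and unperturbed BG3C2 cells, using 14950 genes that had the same symbol and an overlapping locus in the 2 deposited RNA tables, of 15234 genes listed in either table. The series concerns DMAD, the fly Tet-family protein encoded by CG43444, and adenine methylation in DNA. The brain group was made from 2 RNA-seq libraries and the cell group from 3, of 35 samples in all. Both groups are labelled as wild type; the labels give neither the strain, sex and age of the flies nor the treatment of the control cells, and do not say whether libraries came from separate cultures or dissections. BG3C2 is a single established line from the larval central nervous system, which the labels call neuronal, kept in serum and insulin. The tables hold 1 FPKM per gene and group (fragments scaled to transcript length and to sequencing depth, so levels can be set against each other between genes), so there is no spread between replicates, no test and no p-value below, and the depth of the libraries is unknown.

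A brain holds postmitotic neurons of many transmitter types, several classes of glia and, in larvae, dividing neuroblasts, the stem cells of the nervous system. A cultured line is a dividing population that keeps only part of the programme of the tissue it came from. Neuronal function rests on gene groups that are read here separately: ion channels, the machinery that releases synaptic vesicles, enzymes that make transmitters, their receptors, and adhesion molecules that guide axons. In bulk RNA, fewer cells of a type and less RNA per cell cannot be told apart.

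Differences are given as brain minus BG3C2 on the log2(FPKM + 1) scale and are called log2 differences here. A gene was counted as higher in one group where this difference was at least 2, about 4-fold at high levels. Of the 10406 genes that reached 1 FPKM in either group, 2136 (20.5%) were higher in brain and 1618 (15.5%) were higher in BG3C2 by that rule, while 6652 stayed within it. With the tables centred on the median of genes at 1 FPKM or more in both, the same counts were 2708 and 1024. This median log2 difference, over 7148 genes, was -0.57, so a typical gene used in both had the higher FPKM in BG3C2, and the median of each gene list below should be read against it. The rank correlation of the levels was 0.652 over 14807 genes and 0.516 over the 7148 genes at 1 FPKM or more in both, against 0.971 between control and knockdown BG3C2 cells and 0.955 between control and knockout brains. Genes are not independent replicates, so these correlations describe the columns only.

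**Figure D1:**
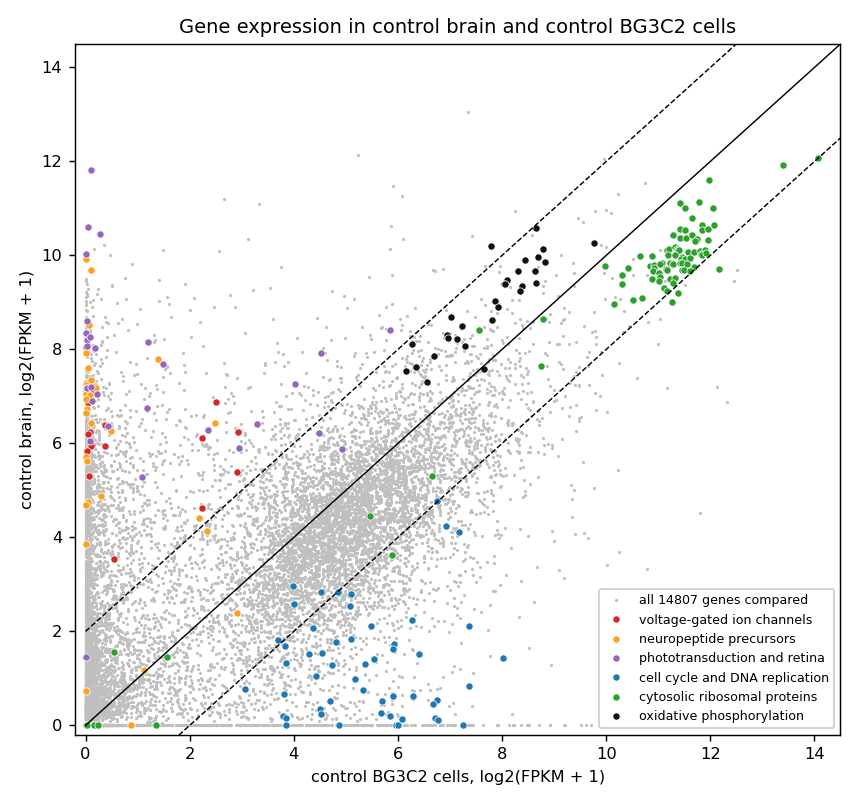
Each point is a gene, with its level in control BG3C2 cells on the horizontal axis and in control brain on the vertical axis, both as log2(FPKM + 1). The solid line marks equal levels and the dashed lines a log2 difference of 2 in either direction; most ion channel, neuropeptide and retina genes lie along the left edge, most cell cycle genes below the lower line, and most ribosomal protein genes between equality and that line.

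The difference between the tissues was large beside the differences inside each table. The median absolute log2 difference was 1.43 between brain and BG3C2, 0.173 between control and knockout brains and 0.102 between control and knockdown cells. Between control and knockout brains 149 genes (1.43%) passed the same fold, and between control and knockdown cells 42 genes (0.404%). Of the 3754 genes past the fold between the control groups, 3695 kept their direction when knockout brain was compared with knockdown cells, and 3229 were again past the fold; these are other libraries of the same tissues. An error bound for a log2 difference was taken from the test statistics in the authors' deposited tables. It is the standard error of the control-to-perturbed ratio of each table, added over both. It covers the error inside each table but not that of setting separately scaled tables against each other. This bound was available for 6782 genes and had a median of 0.731. By a rule of more than 2 such bounds, without centring, 740 genes (10.9%) were higher in brain and 1370 (20.2%) in BG3C2. No bound was available for 1408 of the 2136 genes past the fold in brain and 781 of the 1618 past it in BG3C2. Of the 2136, 1609 were under 1 FPKM in BG3C2.

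Genes for synaptic vesicle release were abundant in brain, while in BG3C2 14 of 25 reached 1 FPKM and the neuron-specific members named next did not. n-syb, the vesicle SNARE of neurons (dm3, chromosome arm 3L, 1630347 to 1637752), had an FPKM of 1027 in brain and 0.382 in BG3C2. It was at 1027 again in knockout brain and at 0.348 in knockdown cells, so both groups of each tissue lay close together and far from those of the other. Syt1, the calcium sensor of fast release, had an FPKM of 514 in brain and 0.0582 in BG3C2. Syn and brp, a vesicle phosphoprotein and the core scaffold of the active zone, stood at 203 and 167 in brain and at 0.124 and 0.0998 in BG3C2. Of 25 genes listed for synaptic vesicle release, 19 were higher in brain and 0 in BG3C2, and the median log2 difference was 5.29. The remaining 6 were Rop, Csp, Vha100-1, Syx1A, synj and unc-13, all measurable in BG3C2 as well; after centring, 5 of these 6 passed the fold. unc-13, the vesicle priming factor, had FPKMs of 270 in brain and 209 in BG3C2, a log2 difference of 0.36 with an error bound of 0.96. Rop and Syx1A, the Sec1-type and syntaxin partners of the SNARE complex, had log2 differences of 1.97 and 1.65 from BG3C2 levels of 94.0 and 24.0 FPKM. shi, the fly dynamin, was at 58.3 FPKM in BG3C2 and 497 in brain.

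Every measured gene of transmitter synthesis and transport was higher in brain, 19 of 19, with a median log2 difference of 6.21. Gad1, which makes GABA, had an FPKM of 676 in brain and 0.0201 in BG3C2. VGlut and VAChT, which load glutamate and acetylcholine into vesicles, were at 145 and 118 FPKM in brain and at 0.0347 and 0.00273 in BG3C2. Vmat, the vesicle carrier of amines, was at 148 against 0.0692 FPKM, and ple, the enzyme that starts dopamine synthesis, at 45.0 against 0.0417. Only 2 of the 19 reached 1 FPKM in BG3C2. They were Ddc, the decarboxylase of dopamine and serotonin synthesis, at 2.70 FPKM against 204 in brain, and Eaat1, a glutamate transporter of glia, at 2.13 against 411.

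Voltage-gated channels gave 23 of 23 genes higher in brain with a median log2 difference of 5.85. para, the main sodium channel, had an FPKM of 72.3 in brain and 0.0350 in BG3C2, and the potassium channels Sh, Shab and slo had 140, 139 and 118 in brain and at most 0.0740 in BG3C2. The calcium channel cac was an intermediate case, with 74.8 FPKM in brain and 6.62 in BG3C2. NaCP60E, a relative of sodium channels, had 116 and 4.70 FPKM, but its error bound of 4.63 was wider than its log2 difference of 4.36, and its locus overlaps that of the ribosomal gene RpL41. Of 22 transmitter-gated channels at 1 FPKM or more in either group, 21 were higher in brain. The exception, the nicotinic subunit nAcRbeta-21C, had the higher value in BG3C2, 15.1 against 5.60 FPKM, a log2 difference of -1.29 that is smaller than its error bound of 1.52. A second nicotinic subunit, nAcRalpha-34E, was also measurable in BG3C2 at 13.96 FPKM, against 71.2 in brain. All 17 G protein-coupled receptors for amines, acetylcholine, GABA and glutamate were higher in brain; 2 of them, GABA-B-R3 and GABA-B-R2, were above 1 FPKM in BG3C2, at 6.68 and 1.58. Under 3 rescalings of the tables, 23 of 23 voltage-gated channels stayed past the fold, 20 or 21 transmitter-gated channels and 16 or 17 receptors.

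Neuropeptide precursor genes followed the same split, with 27 of the 30 above the minimum higher in brain and a median log2 difference of 6.53 over all 32 measured. Nplp3, Nplp2 and Dms, the precursor of myosuppressin, had FPKMs of 965, 826 and 366 in brain, and were listed at 0, at 0.0771 and at 0.0527 in BG3C2. The insulin-like peptides Ilp2, Ilp3 and Ilp5, made by a small group of median neurosecretory cells, were at 244, 151 and 155 FPKM in brain and listed at 0 in BG3C2. Tk, the tachykinin precursor, was the neuropeptide gene with the most visible transcript in BG3C2 among those above the fold, at 4.60 FPKM against 85.8, though its error bound of 6.17 was wider than its log2 difference of 3.95. amn and ETH did not pass the fold, at 1.17 and 6.51 FPKM in BG3C2 and 1.28 and 4.21 in brain. Among the 15 largest differences favouring brain were IA-2 and 7B2, a membrane protein of secretory granules and a chaperone of prohormone convertase, with FPKMs of 700 and 578 in brain and 0.00975 and 0.0198 in BG3C2.

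**Figure D2:**
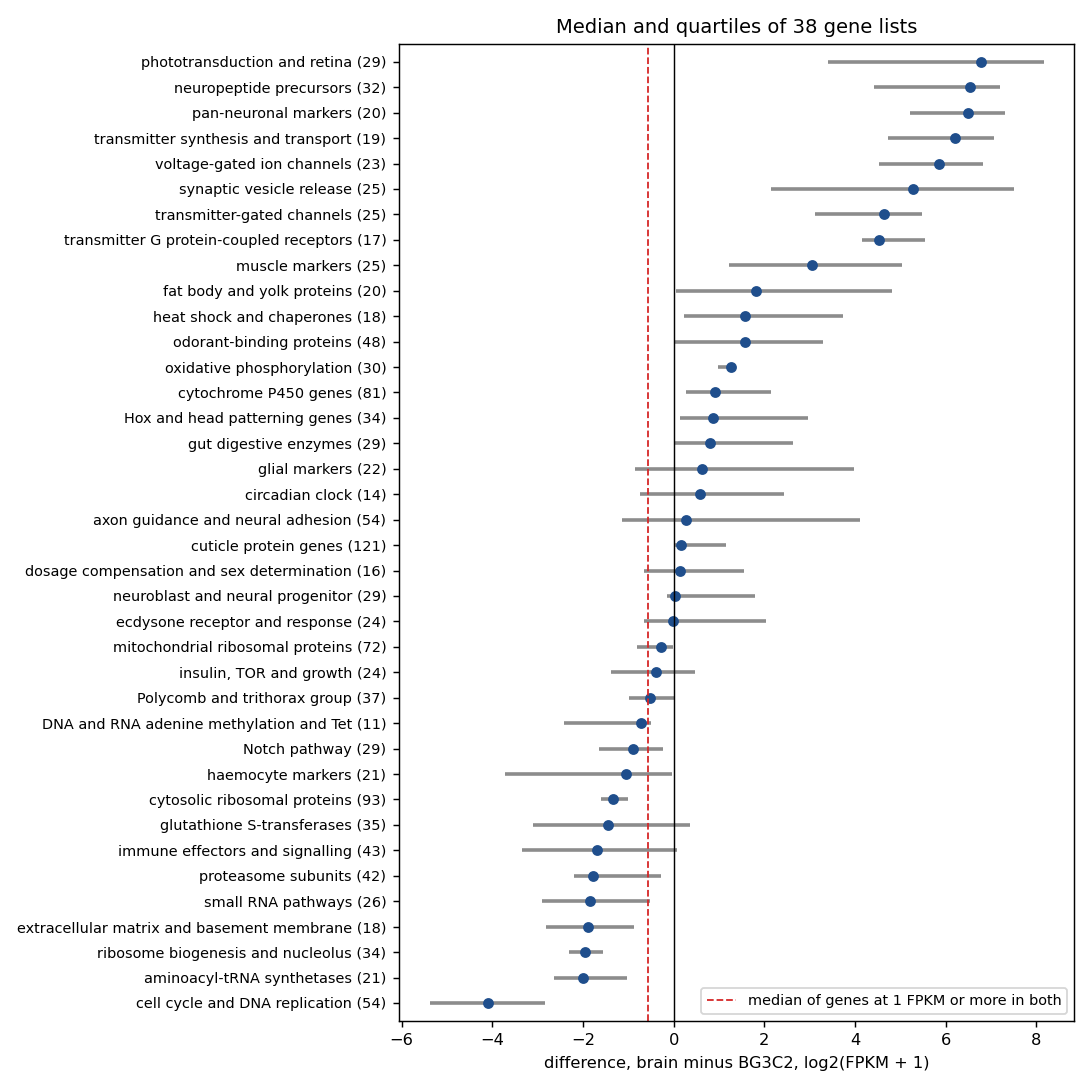
Points are the median log2 difference, brain minus BG3C2, over the measured members of each gene list (number in parentheses) and grey bars run from the lower to the upper quartile; the solid line is 0 and the dashed line is the median of -0.57 of genes at 1 FPKM or more in both. The neuronal lists have medians above 4, cell cycle genes stand lowest at -4.08, and oxidative phosphorylation lies at 1.27.

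Of 20 pan-neuronal markers, 18 were higher in brain, and only 5 reached 1 FPKM in BG3C2, so the label of a neuronal line is not borne out by most of them. The 5 were CadN, Nrg, elav, nrv3 and futsch. elav, the RNA-binding protein used to mark postmitotic neurons (chromosome arm X, 403450 to 424324), had an FPKM of 12.2 in BG3C2 and 75.9 in brain, a log2 difference of 2.54 with an error bound of 0.96. Its paralogues fne and Rbp9 were at 0.0327 and 0.412 in BG3C2 against 120 and 134 in brain. CadN and Nrg, the N-cadherin and neuroglian adhesion proteins, had nearly equal levels: 28.7 and 36.1 FPKM in BG3C2 against 30.03 and 40.6 in brain, with log2 differences of 0.06 and 0.16 inside their error bounds of 0.63 and 0.62. futsch, the MAP1B-like protein of axons, stood at 2.52 against 87.5 FPKM.

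Many axon guidance and neural adhesion genes were expressed in the cells as well. Of 54 measured, 21 were higher in brain, 4 in BG3C2, and 38 reached 1 FPKM in BG3C2; the median log2 difference was 0.28. Higher in BG3C2 were rst, an immunoglobulin adhesion protein (103 against 3.34 FPKM), NetA, a Netrin guidance cue (108 against 3.64), otk, a Plexin co-receptor (74.2 against 3.23), and Sema-5c, a semaphorin (49.6 against 5.32). rst and otk were too low in brain for the authors' test and have no error bound; for NetA the log2 difference was -4.55 with a bound of 0.78. The cue sli and the receptors fra, plexA, Ptp69D and Fas2 were also present in both, within the fold, with BG3C2 levels of 98.6, 24.9, 155, 39.3 and 116 FPKM and brain levels of 52.6, 11.3, 46.8, 11.7 and 48.8. Genes near or under 1 FPKM in BG3C2 and higher in brain included the beat family, with beat-IIa at 86.0 FPKM in brain against 0.272, and robo3 and Dscam2, at 33.9 and 81.3 in brain and at 0.00358 and 0.432 in BG3C2. Fas1, a homophilic adhesion protein, was high in both but higher in brain, 1302 against 67.4 FPKM.

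**Figure D3:**
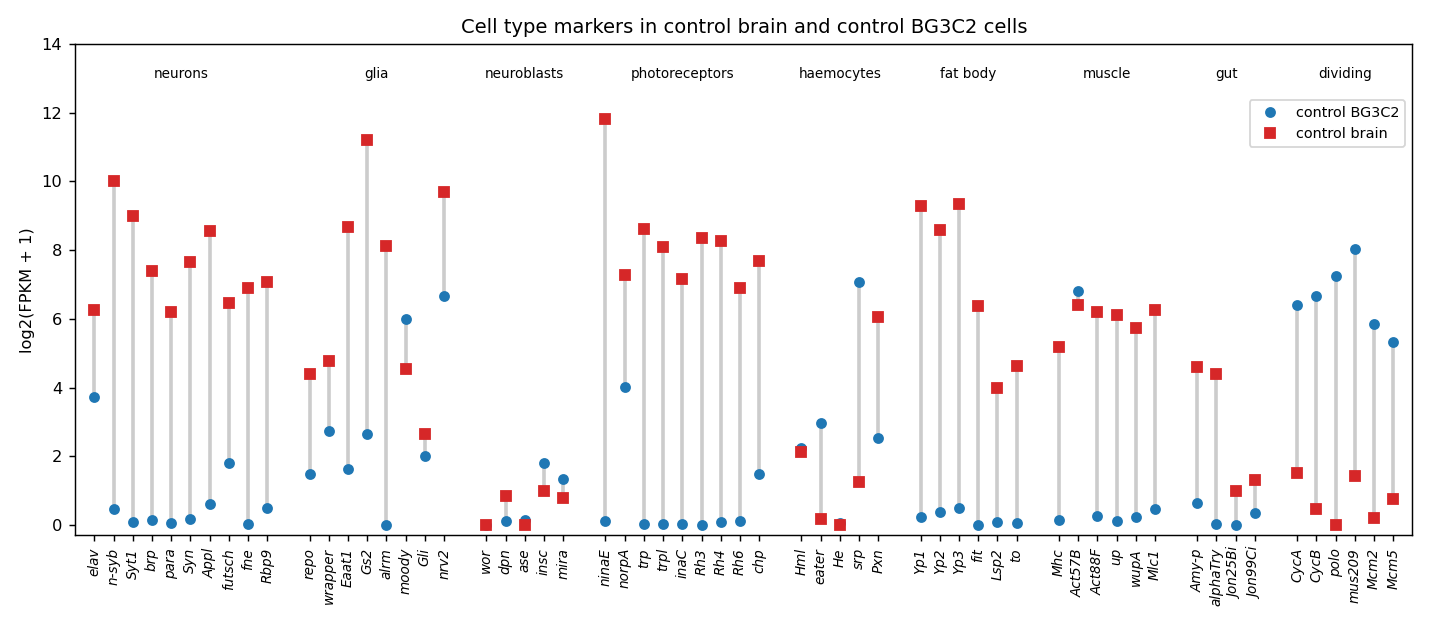
Levels of cell type markers in control BG3C2 cells (blue circles) and control brain (red squares), as log2(FPKM + 1), with a grey bar joining the values of each gene. Markers of neurons, photoreceptors and fat body are high in brain and near 0 in BG3C2, with elav and norpA as intermediate cases, while markers of dividing cells show the opposite order.

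The group labelled brain held transcripts of genes known from tissues outside the central brain. The cells they came from were not tested. Of 29 phototransduction and retina genes, 26 were higher in brain, with a median log2 difference of 6.78. ninaE, the major rhodopsin of the outer photoreceptors (chromosome arm 3R, 15711967 to 15713928), was among the 8 most abundant of the genes compared in brain, at 3597 FPKM against 0.0808 in BG3C2. Arr2 and Arr1, the photoreceptor arrestins, stood at 1566 and 1040 FPKM in brain, and Rh3, Rh4, Rh5 and Rh6, opsins of the inner photoreceptors, at 323, 305, 146 and 119. Yolk protein genes Yp1, Yp2 and Yp3, made by female fat body and follicle cells, were at 624, 383 and 649 FPKM in brain and below 0.5 in BG3C2; the fat body list as a whole had 10 genes higher in brain and 2 in BG3C2. Of 25 muscle genes, 17 were higher in brain and 2 in BG3C2, with Mhc, the muscle myosin heavy chain, at 35.5 FPKM, as were 9 of the 16 digestive enzyme genes above the minimum, with alphaTry, a trypsin, at 20.2 and 1 digestive gene higher in BG3C2. Summed over their measured members, brain and BG3C2 had FPKMs of 11868 and 171 for the retina list, 2542 and 1068 for the fat body list, 1016 and 661 for the muscle list and 178 and 23.3 for the digestive list. In brain 0 retina, fat body or muscle genes and 10 digestive genes were listed at 0. The part of such tissues in the brain values of other genes was not tested. Odorant-binding protein genes were also a feature of the brain table, with 17 of 31 above the minimum higher there. Obp44a had the highest FPKM in brain of all genes compared, 8550 against 162 in BG3C2, with an error bound of 2.10 on a log2 difference of 5.71.

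Glial markers divided between the groups, with 9 higher in brain, 4 higher in BG3C2, or 2 after centring, and a median log2 difference of 0.63 over 22. Gs2, the glutamine synthetase that clears transmitter in glia, had 2356 FPKM in brain and 5.33 in BG3C2, and alrm, an astrocyte protein, 277 and 0.0122. repo, the transcription factor common to lateral glia, was at 20.3 FPKM in brain and 1.81 in BG3C2, a log2 difference of 2.92 with an error bound of 1.70. On the other side loco, an RGS protein of the blood-brain barrier, was at 116 FPKM in BG3C2 against 14.2, drpr, the engulfment receptor, at 361 against 55.4, nkd, an inhibitor of Wnt signalling, at 39.5 against 6.91, and Indy, a citrate carrier, at 118 against 25.0. moody, a receptor of the same barrier, was within the fold, 63.0 against 22.4 FPKM, a log2 difference of -1.45 with an error bound of 0.61.

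Markers of neuroblasts were near the floor in both groups. wor was listed at 0 in both, dpn had FPKMs of 0.0826 in BG3C2 and 0.801 in brain, and ase 0.107 in BG3C2 with 0 listed in brain; insc and mira, which act in asymmetric division, were at 2.49 and 1.55 in BG3C2 and below 1 in brain. Some other temporal and fate factors were higher in brain than in BG3C2. pros, which ends neuroblast divisions, stood at 51.4 FPKM against 0.213, and SoxN, a Sox factor of neural fate, at 37.98 against 0.00979. chinmo, a temporal identity factor, was at 17.9 against 0.0304. Imp, an RNA-binding protein of early temporal identity, and pnt, an ETS factor downstream of EGF receptor signalling, were the 2 genes of the list higher in BG3C2, at 31.7 against 6.95 and 81.7 against 9.94 FPKM. Syp, which acts opposite Imp in neuroblast timing, was present in both, at 139 FPKM in BG3C2 and 65.6 in brain, within the fold. The median of the 29 measured members was 0.04, as 14 of them were under 1 FPKM in both.

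Head and eye patterning factors were brain transcripts and trunk Hox genes were low in both. Of 22 Hox and head patterning genes at 1 FPKM or more, 12 were higher in brain and 0 in BG3C2. toy and ey, the Pax6 proteins of the fly, were at 67.2 and 30.5 FPKM in brain and at 0.194 and 0.267 in BG3C2. ap, dac and Optix, factors of the optic lobe and eye, stood at 39.8, 17.6 and 14.8 FPKM in brain and at most 0.125 in BG3C2. Antp, Ubx, abd-A and Abd-B were below 0.4 FPKM in both groups. The Hox cofactors exd and hth were expressed alike, at 91.3 and 72 FPKM in BG3C2 and 95.8 and 50.0 in brain, with log2 differences of 0.07 and -0.52 inside their error bounds of 0.56 and 0.61. The homeobox gene ct was likewise at 21.01 and 17.9 FPKM.

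**Figure D4:**
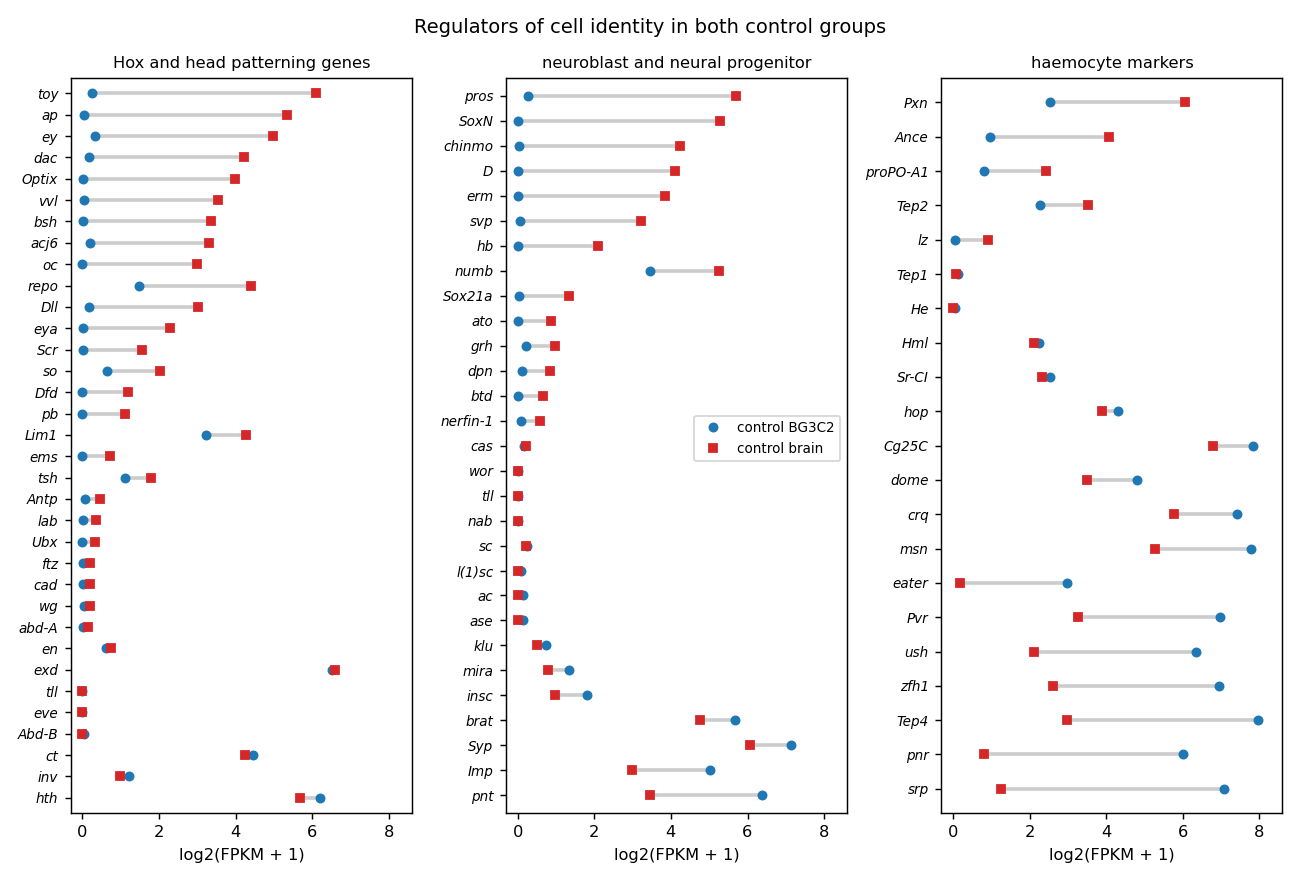
Levels in control BG3C2 cells (blue circles) and control brain (red squares) of the Hox and head patterning genes, the neuroblast and progenitor genes and the haemocyte markers, as log2(FPKM + 1). Head patterning factors such as toy and ap are raised in brain, wor lies at 0 in both, and the GATA factors srp and pnr are raised in BG3C2.

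BG3C2 expressed a set of regulators known from blood cells and mesoderm. Of 18 haemocyte markers at 1 FPKM or more, 8 were higher in BG3C2 and 2 in brain, with a median log2 difference of -1.05 over 21 measured. After centring these counts were 7 and 3, with a median of -0.49. The 2 higher in brain without centring were Pxn and Ance. srp, the GATA factor required for blood and fat body (chromosome arm 3R, 11811873 to 11829803), had an FPKM of 135 in BG3C2 and 1.41 in brain. pnr, a GATA factor of heart and thorax, was at 62.9 against 0.749, and its cofactor ush at 80.6 against 3.34. zfh1, a repressor found in mesoderm, haemocytes and glia, was at 122 against 5.12 FPKM, and Pvr, the PDGF and VEGF receptor of haemocytes, at 125 against 8.55. The defining markers of mature haemocytes were low: Hml was at 3.78 FPKM in BG3C2 and 3.35 in brain, eater at 6.88 and 0.132, and He at 0.0404 with 0 listed in brain. Summed FPKM over the 21 markers was 1462 in BG3C2 and 356 in brain.

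Basement membrane genes were a further group of high transcripts in BG3C2, with 9 of 18 higher there, 2 higher in brain and a median log2 difference of -1.89, or 5 and 2 with a median of -1.32 after centring. The laminin subunits LanA, LanB1 and LanB2 had FPKMs of 231, 586 and 181 in BG3C2 and of 6.28, 7.73 and 7.30 in brain, log2 differences of -4.996, -6.07 and -4.45 against error bounds of 0.80, 0.90 and 0.68. BM-40-SPARC, a collagen-binding protein, was at 973 against 176 FPKM, and trol, the fly perlecan, at 352 against 71.9. The collagen IV chains Cg25C and vkg were high in both, at 229 and 158 in BG3C2 and 110 and 62.8 in brain, within the fold. Pxn and Timp, a peroxidasin and a metalloprotease inhibitor, had the reverse order, with brain levels of 66.0 and 59.6 against 4.77 and 4.28 FPKM.

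Immune genes were called in both directions. Of 42 at 1 FPKM or more, 20 were higher in BG3C2 and 7 in brain. Several antimicrobial peptide genes were higher in the cells: Mtk, which encodes metchnikowin, had 4498 FPKM in BG3C2 against 147 in brain, DptB 748 against 47.4, CecC 146 against 3.86, and AttD, at 420, was listed at 0 in brain. The NF-kappaB factor Rel and the adaptor key, of the same Imd pathway that drives several of these peptides, were at 116 and 248 FPKM in BG3C2 and 13.1 and 32.9 in brain. Genes of the Bomanin class were among those higher in brain: IM1, IM2 and IM3 had FPKMs of 171, 309 and 490 in brain and were listed at 0 in BG3C2. Dro, which encodes drosocin, was equal, at 57.2 and 57.6 FPKM. Mtk and AttD moved by 1.16 and 1.28 (log2 difference) between control and knockdown cells and by 2.13 and 1.60 between control and knockout brains, and Dro by 2.05 and 2.45, against medians of 0.102 and 0.173 over all genes.

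Cell division genes were almost uniformly higher in BG3C2. Of 54 measured, 49 were higher in BG3C2 and 0 in brain, all 54 had the higher value in BG3C2, and the median log2 difference was -4.08, or -3.52 after centring. polo, the mitotic kinase (chromosome arm 3L, 20302753 to 20306566), had an FPKM of 152 and was listed at 0 in brain. stg, the Cdc25 phosphatase that starts mitosis, was at 109 against 0.0766, CycB at 101 against 0.381, and the kinesin Klp61F at 104 against 0.115. In replication, mus209, the sliding clamp PCNA, was at 259 against 1.71 FPKM, RnrL and RnrS, the subunits of ribonucleotide reductase, at 165 and 163 against 3.36 and 0.789, and Mcm2 of the replicative helicase at 56.9 against 0.151. The 5 genes within the fold were Bub1, CycE, CDC45L, DNApol-alpha50 and E2f, with log2 differences of -1.02, -1.41, -1.68, -1.88 and -1.99; after centring 42 of the 54 stayed past it. dm, the fly Myc, was at 95.7 FPKM in BG3C2 and 6.00 in brain.

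Genes for making ribosomes and proteins had lower brain values too, by less. Of 34 ribosome biogenesis genes, 16 were higher in BG3C2 and 0 in brain, with a median log2 difference of -1.96, or -1.40 after centring, when 8 stayed past the fold. Nop60B and Nop56, core proteins of the snoRNA particles that modify ribosomal RNA, were at 105 and 100 FPKM in BG3C2 against 9.57 and 11.9. Aminoacyl-tRNA synthetase genes gave 11 of 21 higher in BG3C2, Aats-asp at 346 against 29.1, and proteasome subunits 17 of the 32 above the minimum; after centring these counts were 6 and 5. The 93 cytosolic ribosomal protein genes had a median of -1.34, with 4 past the fold and 0 after centring. Their median was -0.77 after centring and -0.55 when both columns were given a common distribution, so its size depends on the scaling. RpL41, the most abundant transcript of BG3C2 among the genes compared, had 17141 FPKM there and 4318 in brain. Mitochondrial ribosomal proteins had a median of -0.27, which changed sign to 0.30 after centring.

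Oxidative phosphorylation was a housekeeping group in which brain stood above BG3C2. Its 30 genes had a median log2 difference of 1.27, or 1.84 after centring; 29 were above 0 and 1 passed the fold, or 5 after centring, while 16 exceeded 2 error bounds. Mpcp, the mitochondrial phosphate carrier, was at 1177 FPKM in brain and 219 in BG3C2, sesB, the ADP/ATP translocase, at 1534 and 403, and blw, the alpha subunit of ATP synthase, at 950 and 348. ImpL3, the fly lactate dehydrogenase (chromosome arm 3L, 6252264 to 6255794), had the opposite order with one of the largest differences of the comparison: 1774 FPKM in BG3C2 and 9.11 in brain, a log2 difference of -7.46 with an error bound of 1.08. Among genes picked, after values were seen, as those of at least 200 FPKM in both with the smallest difference were mod(mdg4), Vha16-1, B52, desat1 and the glycolytic enzymes Gapdh1, at 669 and 648 FPKM in BG3C2 and brain, and Pgk, at 275 and 278. Their likeness is what chose them, and no list of glycolytic genes was counted.

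Among protein-coding genes the largest values favouring BG3C2 were a mixed set, named after their values were seen because small RNA genes filled the planned list. betaTub60D, a developmental beta-tubulin, had 1009 FPKM in BG3C2 against 3.99 in brain, with knockdown cells at 1293 and knockout brain at 5.02. Arc1, a capsid-like protein known from neurons, had 3563 against 21.8, with an error bound of 2.198 on a log2 difference of -7.29. Pen, an importin alpha, was at 293 against 0.179 FPKM, and edin, an immune-induced peptide, at 368 against 2.15. cib, a thymosin-like actin-binding protein, and the actin Act5C were among the 8 most abundant of the genes compared in BG3C2, at 5106 and 5873 FPKM against 117 and 820. ImpL2, an insulin-binding protein, was at 673 against 15.8, while the insulin receptor InR was at 14.3 against 4.31, within the fold. br, an ecdysone-response factor of metamorphosis, stood at 324 FPKM against 17.2, and Eip78C and Hr46 of the same hormone response at 0.110 and 0.223 against 43.3 and 41.5.

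Small RNAs need separate reading. snoRNA, snRNA and miRNA genes made up 270 of the genes compared, of which 16 were higher in brain and 203 in BG3C2. Of the 15 largest differences favouring BG3C2, 14 were not protein-coding, among them snoRNA:Me28S-C788b at 4228 FPKM and mir-1011 at 1009, both listed at 0 in brain. Libraries of this kind capture such short transcripts poorly, and many lie inside introns of host genes, so their FPKM is uncertain. Limited to 9826 protein-coding genes, 2049 were higher in brain and 1371 in BG3C2.

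Genes of the piRNA pathway, which silences transposons mainly in gonads, were also found in the cells. Of 25 small RNA pathway genes at 1 FPKM or more, siRNA and miRNA genes included, 11 were higher in BG3C2 and 1 in brain. krimp, squ, del, spn-E and vret had FPKMs of 52.9, 66.8, 56.2, 25.8 and 25.9 in BG3C2, and each was below 1 in brain. The central effectors did not pass the fold: piwi was at 0.766 and 1.49, AGO3 at 2.38 and 0.436, and aub at 10.4 and 2.68 FPKM in BG3C2 and brain. AGO3 and aub still had the higher value in BG3C2, and piwi in brain. loqs, the partner of Dicer-1, was the gene higher in brain, 91.1 against 17.7 FPKM. AGO2 and Dcr-2 of the siRNA pathway had 246 and 64.3 FPKM in BG3C2 and 66.3 and 8.72 in brain.

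The gene that the series perturbs, CG43444 (chromosome arm 3L, 2786205 to 2879158), was expressed in both tissues, with 65.9 FPKM in BG3C2 and 39.8 in brain. Its log2 difference of -0.71 was close to its error bound of 0.65 and to the median of -0.57, and knockdown cells minus control cells gave -0.90 on the same scale. That ratio has an implied standard error of 0.558 and a q of 0.706 in the authors' deposited table, so the order of these gaps cannot be read. Among 37 Polycomb and trithorax group genes, whose products keep genes silent or active, 34 were within the fold, and the median of -0.53 became 0.04 after centring. wds, the WDR5 subunit of histone H3 lysine 4 methyltransferases, was higher in BG3C2 at 76.6 against 8.71 FPKM, as was Caf1, a histone-binding subunit of several complexes, at 110 against 22.3. Mnn1, the fly menin, was the gene higher in brain, at 98.9 against 5.66. Pc, whose binding was mapped in the cells, had 8.91 FPKM in BG3C2 and 25.7 in brain, a log2 difference of 1.43 with an error bound of 1.30. Of the 11 genes listed for DNA and RNA adenine methylation, 4 were higher in BG3C2: jumu, at 59.0 against 3.37, Ime4, the METTL3 methyltransferase of mRNA, at 19.1 against 1.44, its partner CG7818, at 30.5 against 5.89, and CG14906, at 37.7 against 5.16.

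Dosage compensation genes differed in their RNA component. roX1 and roX2, noncoding RNAs of the male X-chromosome complex, had FPKMs of 420 and 164 in brain and 0.110 and 24.8 in BG3C2. The protein subunits msl-2, mle and msl-1 were within the fold, with 26.4, 34.5 and 20.4 FPKM in BG3C2 and 19.8, 45.1 and 8.25 in brain. Sxl, the switch gene of female development, was at 61.3 and 124. Stress genes were higher in brain, with 9 of 18 past the fold and 0 in the other direction: Hsp68 had 1578 FPKM against 57.7, stv, a Bag-domain cochaperone, 384 against 3.61, and Hsp26 4227 against 998. These genes differed within brain as well: knockout minus control brain gave log2 differences of -2.94, -2.52 and -2.26, and Hsp26 had the higher level in the cells, by a log2 difference of -1.12, when the perturbed groups were compared. The Hsp70 copies are nearly identical, so their separate values are uncertain. Glutathione S-transferase genes leaned to BG3C2, 14 against 5 of the 32 above the minimum, with GstD5 at 66.2 against 1.04 and GstE2 at 0.586 against 104. Cytochrome P450 genes leaned to brain, 23 against 4 of 62, led by Cyp28a5 at 152 against 0.363 FPKM. Notch pathway genes had 7 higher in BG3C2 and 1 in brain as deposited, but 3 and 3 after centring. Their median log2 difference was -0.90, and it stayed below 0 under each rescaling, from -1.29 to -0.33. They included mam, a coactivator, at 339 FPKM in BG3C2 against 27.9, and fng, the glycosyltransferase that tunes the receptor, at 8.39 against 37.5.

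By position, chromosome 4 stood apart from the arms. Of its 89 genes at 1 FPKM or more in either group, 30 (33.7%) were higher in brain and 3 (3.37%) in BG3C2, with a median log2 difference of 0.82. On arms 2L, 2R, 3L, 3R and X the shares were 18.7% to 21.6% and 14.1% to 17.2%, with medians from -0.26 to -0.14. toy, ey and unc-13 are on chromosome 4. This split was noticed in the values and has no test.

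The region lists of the series allowed the expression classes to be set against chromatin in BG3C2 only. H3K4me3 marks active promoters, H3K27ac active promoters and enhancers, and Pc, or Polycomb, reads a repressive histone mark through its chromodomain. A locus was counted where a peak overlapped it by at least 1 bp, over 14581 loci on the 6 main arms. H3K4me3 lay in 29.9% of the 2111 loci of genes higher in brain (95% Wilson interval 28.0% to 31.9%) and in 88.3% of the 1609 loci higher in BG3C2 (86.7% to 89.8%), against 89.1% of the 5527 loci used in both within the fold and 18.5% of the 4247 loci under 1 FPKM in both. RNA polymerase II had shares of 37.8%, 78.0%, 72.5% and 24.5% in the same order, and H3K27ac 39.7%, 92.5%, 93.6% and 24.5%. Since most genes higher in brain were under 1 FPKM in BG3C2, the nearest comparison is with the loci under 1 FPKM in both. Intervals cover counting error only, and overlapping loci share peaks, so they are too narrow. Over loci that overlap no other, the H3K4me3 shares were 14.3%, 82.1%, 84.7% and 4.37%. The control list of RNA polymerase II is named for BG3C3 rather than BG3C2 in the deposit and was read as BG3C2. The sample labels hold no library of H3K27ac or RNA polymerase II, and a single control library each of H3K4me3 and Wds. Spread between libraries is therefore not shown for these lists. Which libraries were merged in the Pc and Wds lists is not stated, and knockdown libraries are listed for both.

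**Figure D5:**
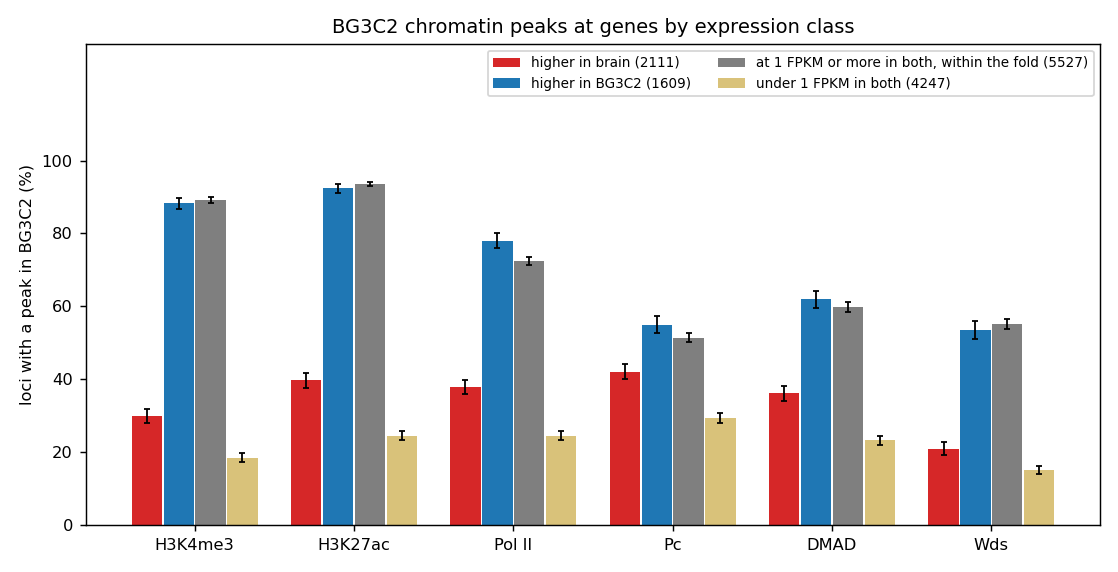
Bars give the percentage of gene loci with at least 1 overlapping BG3C2 peak for 6 region lists, by expression class, with the number of loci in parentheses; error bars are 95% Wilson intervals, which cover counting error only. Genes higher in brain have 29.9% of loci with H3K4me3 against 88.3% of genes higher in BG3C2, and the gap is smallest for Pc, 42.1% against 55.0%.

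Pc was the region list with the smallest gap, 42.1% of loci higher in brain and 55.0% of loci higher in BG3C2, a difference of -12.9 percentage points (-16.1 to -9.71). The Pc share was 43.0% of all loci, 51.4% of loci used in both within the fold and 29.4% of loci under 1 FPKM in both. Loci higher in brain thus lay near the share of all loci and above that of loci under 1 FPKM in both. Pc without H3K4me3 was found at 23.4% of loci higher in brain and 2.05% of loci higher in BG3C2. The share was 17.3% of loci under 1 FPKM in both. This combination was chosen after the values were seen. H3K4me3 lay in 29.9% of loci higher in brain and in 88.3% of loci higher in BG3C2. Few loci higher in BG3C2 could therefore be counted here, whatever their Pc peaks. The gap between 23.4% and 2.05% thus cannot be read as a difference in Pc. Genes higher in brain had longer loci, with a median of 7.61 kb against 3.76 kb for genes higher in BG3C2 and 1.94 kb for those under 1 FPKM in both. Within 5 bins of locus length the Pc share rose with length, from 9.43% to 57.4% for genes higher in brain and from 9.82% to 64.2% for genes under 1 FPKM in both, and the gap between these classes had no fixed direction. H3K4me3 remained lower at genes higher in brain than at genes higher in BG3C2 in all 5 bins. The shares were 6.79% against 65.7% in the shortest and 35.9% against 92.2% in the longest. Genes under 1 FPKM in both had H3K4me3 shares of 3.05% in the shortest bin and 51.5% in the longest. Genes higher in brain thus lay above this class in the shortest bin and below it in the longest. DMAD peaks lay in 36.1% and 61.9% of loci higher in brain and in BG3C2, and Wds peaks in 20.9% and 53.6%. Over loci that overlap no other these were 25.1% and 54.2%, and 10.5% and 40.2%. Of loci under 1 FPKM in both, 23.2% had a DMAD peak and 15.2% a Wds peak. The same shares were 59.8% and 55.1% of loci used in both within the fold, and 43.9% and 35.8% of all loci.

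Single loci that were silent in BG3C2 differed in their peaks. Syt1 and VGlut, at the floor in BG3C2, had 0 peaks of any of the 6 lists, and Gad1 and Rdl, a GABA-gated chloride channel, had 1 Pc peak each and no other. brp had 4 Pc peaks and 0 of H3K4me3. oc, a head gap factor at 6.91 FPKM in brain and listed at 0 in BG3C2, had 8 Pc peaks in 20.5 kb, and ey had 5 in 23.5 kb. The trunk Hox genes had the most, with 36 in the 103 kb locus of Antp and 33 in the 78.0 kb locus of Ubx, and 0 of H3K4me3 in either. Of the 22 Hox and head patterning genes at 1 FPKM or more, 90.9% had a Pc peak, against 43.0% of all loci. Locus length was not matched here, and in the longest bin the Pc shares of the classes ran from 57.4% to 77.4%. Other lists had similar shares, with 93.3% of 15 neuroblast and progenitor genes and 87.0% of 23 Notch pathway genes. elav, at 12.2 FPKM in BG3C2, had 3 H3K4me3 peaks and 0 of Pc in a locus shared with other transcripts. In contrast srp and pnr, high in BG3C2, held 7 and 8 H3K27ac peaks together with 3 and 2 of Pc, and polo held 2 of H3K4me3 and 0 of Pc. Transmitter synthesis genes had H3K4me3 at 10.5% of 19 loci, and cell cycle genes at 98.1% of 54, against 55.5% of all loci. Their order is that of the expression classes, with 29.9% of all loci higher in brain and 88.3% of those higher in BG3C2.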

How the data were processed

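RNA libraries were made from total RNA with the TruSeq kit and read as paired ends, per the labels' protocols, which mention duplicate samples per condition although 3 control BG3C2 libraries are listed. CASAVA 1.4, Bowtie 0.12.9, TopHat2 2.0.8, Cuffdiff 2.2.1 and MACS 1.4.2 were used with build dm3, per the submitters' processing notes; their settings are not given here. Per the file headers, the deposited Cuffdiff tables hold 1 FPKM per gene and group, scaled by the authors within each table, the log2 fold change, a test statistic (a score) and the p-value and q-value of control against perturbed samples; the p-values were not used, and levels set across the tables are separately scaled. The deposited peak lists of H3K4me3, H3K27ac and RNA polymerase II carry the authors' score per peak, used only to rank H3K4me3 peaks. The Pc, DMAD and Wds lists hold positions, and which libraries were merged in them is not stated. Knockdown as well as control libraries are listed for Pc and Wds, so these lists may not be of unperturbed cells alone. RNA depth is unknown, and 0 columns of per-sample values were left unused.

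Tables were joined on the symbol with overlapping loci (14706 of 14950 identical). Left out were 143 genes, leaving 14807: 37 had a Cuffdiff status of HIDATA in BG3C2 and 106 of LOWDATA in brain. Ranks by level hold only among the genes kept. Lists were read over all measured members, and counts over those at 1 FPKM or more in either group, since the others cannot pass. The error bound is the deposited log2 ratio divided by the deposited statistic, squared, summed over both tables and square-rooted. No test was possible with 1 value per group. A planned reading of promoter sequences was not run, as no sequence of this build was at hand. Symbols were matched to RefSeq Release 6 for biotype only (14685 of 14807).

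The members, the 38 gene lists and the comparison were chosen with earlier results of these data known. Named genes were the 15 largest differences each way, the 8 most abundant genes of each group, up to 4 members of each list by difference and 1 by level, high genes under 1 FPKM in the other group, cell type markers, CG43444, and patterning and neuroblast genes; further genes were chosen after their values were seen. The cyclophilin Cyp1 and the Acp accessory gland genes, caught by name patterns, were removed on sight. Loci are those of the tables, which have no strand and merge overlapping transcripts. The fold rule was run on simulated data with planted shifts larger than the fold and noise smaller than the error bounds here. That run checks only that the code counts such shifts, and it does not measure the error of the calls above. Computation used Python 3.11.15, pandas 2.3.3, numpy 2.4.6 and SciPy 1.17.1.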

Additional observations from a re-analysis of the deposited data

How the results depend on the processing

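No paired analysis was possible because the tables hold 1 value per gene and group, and for the same reason no library could be left out. The planned reading of promoter sequences was not run. With 2136 genes higher in brain and 1618 in BG3C2 as reported, a pseudocount of 10 gave 920 and 612, genes tested by the authors in both tissues gave 728 and 852, a fold threshold of 1 gave 3381 and 3416 and of 3 gave 1474 and 715, and centring 2708 and 1024; the smaller set of genes tested by the authors and the other thresholds change those counts by construction, and the cause was not tested for the others. A pseudocount of 0.1 (2875 and 1943), columns scaled to a common sum (2589 and 1322), a common distribution (1865 and 1802), a minimum of 5 FPKM (1960 and 1560), identical loci (2105 and 1582), perturbed groups (2140 and 1518) and protein-coding genes (2049 and 1371, chosen after the data were seen) stayed within 1.5 times. The rank correlation fell to 0.516 over genes at 1 FPKM or more in both. A pseudocount of 0.1, which stretches low values, moved list medians to 8.67 (pan-neuronal), 8.31 (transmitter synthesis), 6.57 (transmitter-gated), 8.44 (voltage-gated), 7.40 (G protein-coupled receptors), 9.09 (neuropeptides), 8.61 (retina), -4.89 (cell cycle), 2.02 (Hox and head), 5.74 (muscle), 4.29 (fat body), 2.11 (digestive), 3.87 (odorant-binding) and 2.27 (P450). Scaling to a common sum gave 5.42 (transmitter-gated), 6.601 (voltage-gated), 5.26 (receptors) and 7.27 (neuropeptides), and a common distribution -0.55 (cytosolic ribosomal proteins). Over members at 1 FPKM or more, medians were 1.79 (neuroblast), 2.56 (Hox and head), 2.48 (digestive) and 2.07 (cuticle). Of 38 lists, 34 kept the sign of their median after centring and 36 under each of the other rescalings.

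For peaks, brain-higher minus BG3C2-higher loci in percentage points was -58.4 for H3K4me3, -52.8 for H3K27ac, -40.2 for RNA polymerase II, -12.9 for Pc, -25.8 for DMAD and -32.7 for Wds, and the sign was kept under each alternative below. Requiring at least 50% of a peak within the locus gave -51.5, -48.6, -30.9, -9.40, -17.3 and -21.4 in that order. Loci extended by 1 kb gave -50.0, -43.8 and -36.3 for the first 3. Loci overlapping no other gave -67.8, -64.4, -44.7 and, for DMAD, -29.1. A fold of 3 gave -61.7, -57.1, -43.4 and, for Wds, -36.2. The upper 50% of H3K4me3 peaks by score gave -47.0. The cause of these shifts was not tested. Depth is unknown, and genes that the authors did not test carry no error bound.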
